A study of Mus musculus with 9 samples.

Results

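The genes described here are the myocardin family of coactivators, the transcription factor they share and the ternary complex factors that use the same partner: Mrtfa (also Mkl1), Mrtfb (also Mkl2), Myocd, Srf, Elk1, Elk3 and Elk4. They were chosen by name. Every probeset annotated to exactly 1 of these symbols was taken, which gave 9 probesets for 7 genes, of 34760 probesets and 19937 genes in all. Mrtfb has 3 probesets and each other gene 1, and 0 probesets with several symbols hold a member. For Mrtfb the probeset with the highest mean over the 9 arrays stands for the gene, and the others are given beside it.

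Transcripts were measured on Affymetrix mouse gene arrays in 3 strains of HC11 cells, a mammary epithelial line derived from a BALB/c mouse in mid-pregnancy, with 3 arrays per strain. All strains carry a stably transfected Mkl1 fused at its C terminus to red fluorescent protein. HC11-ΔSAP cells carry a version that lacks the SAP domain, HC11-mutB1 cells one with alanine substitutions in the B1 domain, through which Mkl1 binds SRF, and HC11-FL cells, the control, the full length protein. All were kept for 48 h in medium with 0.03% FCS and no EGF before RNA was taken. Each strain was selected with Geneticin and sorted for red fluorescence, and the sources describe no independently made repeat of a strain. The spread between arrays therefore cannot be taken to hold spread between independently made strains. No empty-vector strain was arrayed, and every difference below is therefore between forms of overexpressed Mkl1, not between presence and absence of Mkl1. The sources do not say whether replicates were separate cultures, and p-values measure only the spread between these arrays.

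MRTFs bind monomeric actin and are held back by it. When actin assembles into filaments, they accumulate in the nucleus and bind SRF, which sits on DNA at CArG boxes, and cytoskeletal genes are transcribed. Ternary complex factors are ETS proteins that recognise an ETS site next to a CArG box, contact the same surface of SRF as the MRTFs do, and are activated through phosphorylation by ERK, which links SRF to growth factor signals and immediate early genes. Mice without Mrtfa fail to sustain lactation, and the myoepithelial cells of their mammary glands contract poorly.

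Values below are log2 expression as the authors deposited it, normalized together by RMA. A difference passed when its adjusted p in limma (Benjamini and Hochberg over all probesets) was at most 0.01, with no minimum fold. Signed differences given without a further word are log2 fold changes, against HC11-FL unless another strain is named. Array medians lay between 4.53 and 4.60, arrays of 1 strain correlated at 0.994 to 0.995 and arrays of different strains at 0.985 to 0.989. A mean log2 expression of at least 4, the minimum of the study's methods, was reached by 13157 genes and is taken as expressed. This minimum lies under every array median, so reaching it does not show that a gene is transcribed. The number of arrays limits the precision: an exact two-sided permutation test of 3 against 3 arrays cannot give a p below 0.1, the value it gave wherever arrays of the compared strains did not overlap. Of the epithelial markers, means were 10.2 for Krt8, 10.3 for Epcam and 11.0 for Cdh1 in HC11-ΔSAP cells, 9.83, 10.4 and 10.8 in HC11-mutB1 cells and 10.5, 9.90 and 10.6 in HC11-FL cells, whereas Krt19 lay at 3.34 to 3.43 and Ptprc, the general leukocyte marker, at 3.39 to 3.55 in the strains. Krt18 averaged 8.08 in HC11-ΔSAP, 8.78 in HC11-mutB1 and 9.44 in HC11-FL cells. It was 2.56-fold lower in HC11-ΔSAP (limma adjusted p = 4.81e-06) and 1.57-fold lower in HC11-mutB1 cells (limma adjusted p = 0.000241). Of the luminal list (Krt8, Krt18, Krt19, Epcam and Cdh1), 2 rose and 2 fell in HC11-ΔSAP, and 1 rose and 2 fell in HC11-mutB1 cells. Of 4 fibroblast markers Col1a1 and Col3a1 did not pass, while Pdgfra averaged 6.45 in HC11-ΔSAP, 7.38 in HC11-mutB1 and 6.88 in HC11-FL cells and Pdgfrb 7.05, 6.56 and 7.43 in the same order, all of these changes against HC11-FL passing. Cd68, a lysosomal protein abundant in macrophages, was at 8.14 in HC11-ΔSAP, 7.35 in HC11-mutB1 and 7.69 in HC11-FL cells, and the endothelial markers Pecam1 and Cdh5 at 3.34 to 3.64. The part of these markers in the results was not tested.

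Of the 7 genes, 3 were lower in HC11-ΔSAP cells than in HC11-FL (Mrtfa, Elk1 and Elk3), against a background of 28.0% of expressed genes that passed in either direction and 12.0% that were lower. In HC11-mutB1 against HC11-FL cells 2 of the 7 were lower (Elk1 and Elk3), where 26.3% of expressed genes passed and 10.6% were lower. Between HC11-ΔSAP and HC11-mutB1 cells 0 of the 7 passed in limma, against 20.5% of expressed genes (10.6% lower and 9.86% higher in HC11-ΔSAP), although 3 had an unadjusted p under 0.05. None rose past the threshold in a mutant strain. All the passing changes were under 2-fold, the minimum the study's methods set, so none of the 7 genes passes those filters. They were passed by 4.13% of expressed genes in HC11-ΔSAP against HC11-FL, 3.88% in HC11-mutB1 against HC11-FL and 3.89% between the mutant strains, or 1.75%, 1.67% and 1.67% of all probesets. The median log2 fold change over the 6 expressed members was -0.40 in HC11-ΔSAP and -0.13 in HC11-mutB1 cells, where that over all 13157 expressed genes was 0.00 and -0.01. The HC11-FL arrays enter both comparisons, which are therefore not independent. Over all probesets 13.1% passed in HC11-ΔSAP against HC11-FL, 12.1% in HC11-mutB1 against HC11-FL and 9.38% between the mutant strains. Higher in a mutant strain than in HC11-FL were 16.0% of expressed genes for HC11-ΔSAP and 15.7% for HC11-mutB1. Arrays did not overlap for 5 of the 7 genes between HC11-ΔSAP and HC11-FL, for 4 between HC11-mutB1 and HC11-FL and for 3 between HC11-ΔSAP and HC11-mutB1, which was so for 53.4%, 55.1% and 51.0% of expressed genes.

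**Figure D1:**
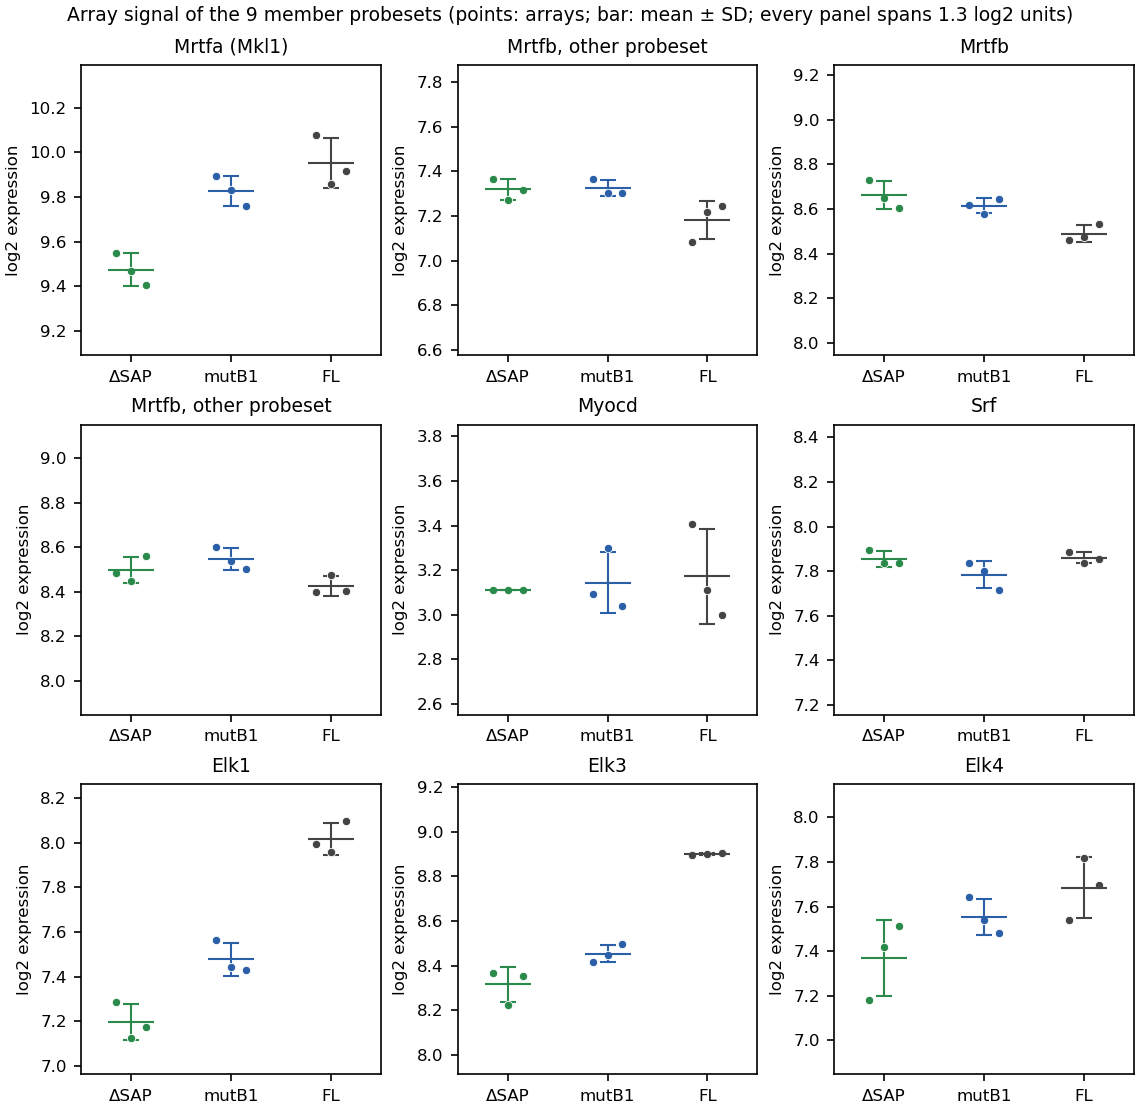
Log2 expression (y axis) of the 9 probesets of the 7 genes in HC11-ΔSAP, HC11-mutB1 and HC11-FL cells (x axis, left to right). Points are arrays, the bar is the mean and the whiskers ± SD (n = 3), and each panel spans 1.3 log2 units at its own level. For Elk1 and Elk3 every HC11-FL array lies above every array of both mutant strains, and for Mrtfa the HC11-ΔSAP arrays lie below all others.

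Among the coactivators, Mrtfa, the gene of which all strains carry an additional tagged copy, read 9.55, 9.47 and 9.41 in HC11-ΔSAP cells, 9.89, 9.83 and 9.76 in HC11-mutB1 cells and 10.08, 9.86 and 9.92 in HC11-FL cells. All HC11-ΔSAP arrays were below the other 6, while those of HC11-mutB1 overlapped with HC11-FL. The signal was 1.39-fold lower in HC11-ΔSAP cells than in HC11-FL (log2 fold change -0.48, SE 0.07, 95% interval -0.64 to -0.31, limma adjusted p = 0.00177). HC11-mutB1 differed from HC11-FL by -0.12 (95% interval -0.29 to 0.04, limma adjusted p = 0.313). Set directly against HC11-mutB1, HC11-ΔSAP cells were at -0.35 (SE 0.07, 95% interval -0.52 to -0.19), which misses the threshold narrowly (limma adjusted p = 0.0111) and crosses it without the first HC11-FL array (limma adjusted p = 0.0067) and in several other fits. Whether the probes lie in sequence that the construct carries, and whether they lie in the part that ΔSAP lacks, was not examined, so the shares of construct and endogenous transcript in this signal are not known. The paper states that the strains were sorted for similar amounts of tagged Mkl1 protein, and its immunoblot showed approximately equal overexpression. How the array signal relates to that protein was not tested.

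Mrtfb, the closest relative of Mrtfa, showed values of 8.73, 8.65 and 8.61 in HC11-ΔSAP cells, 8.62, 8.58 and 8.65 in HC11-mutB1 cells and 8.46, 8.47 and 8.53 in HC11-FL cells. On the probeset used, all mutant arrays lay above all control arrays by a small margin. For Mrtfa the HC11-ΔSAP arrays alone lay apart from HC11-FL, and below it. The Mrtfb difference was 0.17 in HC11-ΔSAP (95% interval 0.06 to 0.28, limma adjusted p = 0.038) and 0.13 in HC11-mutB1 cells (95% interval 0.02 to 0.24, limma adjusted p = 0.122), and neither passed. The other probesets of the gene gave 0.14 and 0.07 in HC11-ΔSAP and 0.14 and 0.12 in HC11-mutB1 cells, with limma adjusted p-values of 0.129 to 0.445. On the probeset at 0.07, HC11-ΔSAP and HC11-FL arrays overlapped.

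Myocd, the coactivator of heart and smooth muscle, averaged 3.14 over all arrays and so lay under the expression minimum in every strain. It read 3.11 on all 3 HC11-ΔSAP arrays, 3.09, 3.30 and 3.04 in HC11-mutB1 cells and 3.41, 3.11 and 3.0 in HC11-FL cells. The HC11-ΔSAP arrays and 1 HC11-FL array hold exactly the same deposited number, so their SD of 0 is no measure of biological spread. Such repeats occur in 45.2% of all probesets. Differences were -0.06 in HC11-ΔSAP (limma adjusted p = 0.805) and -0.03 in HC11-mutB1 cells (limma adjusted p = 0.909). None of the 6 muscle markers (Myh11, Des, Cnn1, Myh6, Actn2 and Ckm) changed in any comparison.

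Srf, the DNA-binding factor at the centre of both branches, did not pass in any comparison. Its arrays gave 7.90, 7.83 and 7.83 in HC11-ΔSAP cells, 7.83, 7.80 and 7.72 in HC11-mutB1 cells and 7.89, 7.84 and 7.86 in HC11-FL cells. The difference was 0.00 in size between HC11-ΔSAP and HC11-FL, with a 95% interval of -0.11 to 0.10 (limma adjusted p = 0.974). HC11-mutB1 cells lay at -0.08 against HC11-FL (95% interval -0.18 to 0.03, limma adjusted p = 0.353). HC11-ΔSAP and HC11-mutB1 cells differed by 0.07 (95% interval -0.04 to 0.18, limma adjusted p = 0.412).

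Srf is itself known to carry CArG boxes next to its start site, and its promoter window is shown because it holds the sites through which these factors work. The window (250 bases before to 50 after the annotated start, RefSeq, GRCm38.p6, minus strand, chr17:46556113-46556412) is printed with CArG boxes and the ETS core CCGGAA in capitals.
Srf: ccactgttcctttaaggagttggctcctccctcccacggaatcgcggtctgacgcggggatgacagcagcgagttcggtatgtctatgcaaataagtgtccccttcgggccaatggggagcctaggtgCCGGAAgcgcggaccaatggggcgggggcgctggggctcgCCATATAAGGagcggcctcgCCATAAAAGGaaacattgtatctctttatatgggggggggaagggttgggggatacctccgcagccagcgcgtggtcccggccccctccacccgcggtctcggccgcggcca
It has 2 CArG boxes, beginning at positions -82 and -62 from the start, and 1 ETS core at -122. Both strands were searched, and no motif overlaps another. Of 32851 mouse windows of this length, 1.63% hold a CArG box, 0.0183% hold 2 or more and 14.9% hold an ETS core. A match describes the letters and is not evidence of binding in these cells.

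**Figure D2:**
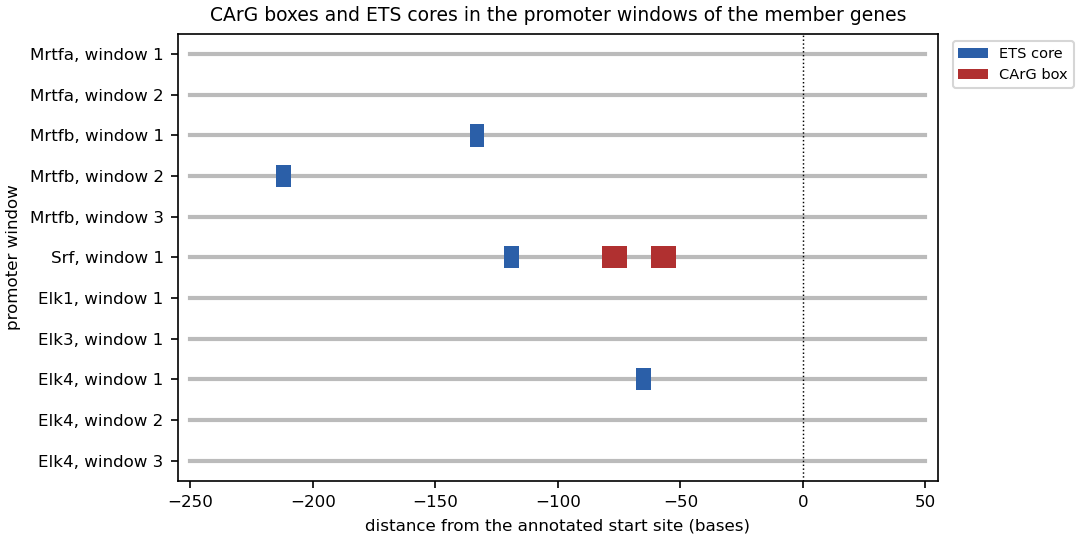
Motif matches in the 11 promoter windows of 6 of the 7 genes (rows). The x axis is the distance from the annotated start in bases, grey lines are the windows, red boxes CArG boxes and blue boxes ETS cores. Matches lie in the windows of Srf, Mrtfb and Elk4, and CArG boxes in that of Srf alone.

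Of the 7 genes, the ternary complex factors Elk1 and Elk3 had the largest decreases in both mutant strains. Elk1, the founding member, which turns into an activator when ERK phosphorylates it, had values of 7.29, 7.13 and 7.17 in HC11-ΔSAP cells, 7.56, 7.44 and 7.43 in HC11-mutB1 cells and 8.0, 7.96 and 8.10 in HC11-FL cells. The 3 strains did not overlap with each other, with HC11-ΔSAP lowest and HC11-FL highest. Elk1 was 1.77-fold lower in HC11-ΔSAP cells than in HC11-FL (log2 fold change -0.82, SE 0.06, limma adjusted p = 5.85e-05), a decrease as large as or larger than this being found in 359 of 13157 expressed genes. It was 1.45-fold lower in HC11-mutB1 cells than in HC11-FL (log2 fold change -0.54, SE 0.06, limma adjusted p = 0.000611), among 603 genes with at least that decrease. HC11-ΔSAP stood at -0.28 against HC11-mutB1 cells (95% interval -0.43 to -0.13), which did not pass (limma adjusted p = 0.0203).

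Elk3, also called Net, which represses its targets until it is phosphorylated, had values of 8.37, 8.22 and 8.36 in HC11-ΔSAP cells, 8.42, 8.45 and 8.50 in HC11-mutB1 cells and 8.90, 8.90 and 8.90 in HC11-FL cells. The HC11-FL values are near each other but not identical (SD 0.004). All mutant arrays were below all control arrays, and those of HC11-ΔSAP below those of HC11-mutB1. Elk3 was 1.50-fold lower in HC11-ΔSAP cells than in HC11-FL (log2 fold change -0.59, SE 0.05, limma adjusted p = 9.74e-05), with 628 expressed genes at or below that change. It was 1.36-fold lower in HC11-mutB1 cells than in HC11-FL (log2 fold change -0.45, SE 0.05, limma adjusted p = 0.000458), with 827 genes at or below. The mutant strains differed from each other by -0.14 (95% interval -0.26 to -0.02, limma adjusted p = 0.123).

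Elk4, the third factor of this family, showed the widest spread between arrays of the same strain among the ternary complex factors. It read 7.18, 7.42 and 7.51 in HC11-ΔSAP cells, 7.64, 7.54 and 7.48 in HC11-mutB1 cells and 7.54, 7.82 and 7.70 in HC11-FL cells. HC11-ΔSAP and HC11-FL arrays did not overlap, but the difference of -0.31 (SE 0.10, 95% interval -0.55 to -0.08) did not pass (limma adjusted p = 0.073). HC11-mutB1 against HC11-FL gave -0.13 (95% interval -0.36 to 0.11, limma adjusted p = 0.481), and HC11-ΔSAP against HC11-mutB1 -0.18 (95% interval -0.42 to 0.05, limma adjusted p = 0.328). The same sign for all ternary complex factors does not show that Elk4 changed.

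The promoter windows of Elk1 and Elk3 are shown because these genes were lower in both mutant strains. Neither contains a CArG box or CCGGAA, the only form of ETS core searched, so nothing is in capitals. Both are RefSeq windows on the minus strand of GRCm38.p6, at chrX:20950559-20950858 and chr10:93311110-93311409.
Elk1: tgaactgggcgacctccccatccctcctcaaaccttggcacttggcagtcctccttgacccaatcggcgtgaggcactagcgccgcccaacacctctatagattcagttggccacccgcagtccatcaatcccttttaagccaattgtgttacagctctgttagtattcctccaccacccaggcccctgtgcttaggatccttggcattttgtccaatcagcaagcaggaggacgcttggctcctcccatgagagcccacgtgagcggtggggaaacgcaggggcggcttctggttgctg
Elk3: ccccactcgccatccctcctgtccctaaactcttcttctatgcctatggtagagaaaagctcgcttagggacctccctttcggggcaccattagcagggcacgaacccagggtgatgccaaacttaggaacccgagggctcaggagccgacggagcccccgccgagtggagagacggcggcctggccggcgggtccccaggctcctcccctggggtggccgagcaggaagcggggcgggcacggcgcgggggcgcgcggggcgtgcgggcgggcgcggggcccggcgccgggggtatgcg
The absence of these letters from 300 bases says nothing about binding of SRF or ETS factors at other forms of site or elsewhere. The windows of Mrtfa had no match, 1 of 3 Elk4 windows had an ETS core at -68, and 2 overlapping Mrtfb windows share 1 ETS core.

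**Figure D3:**
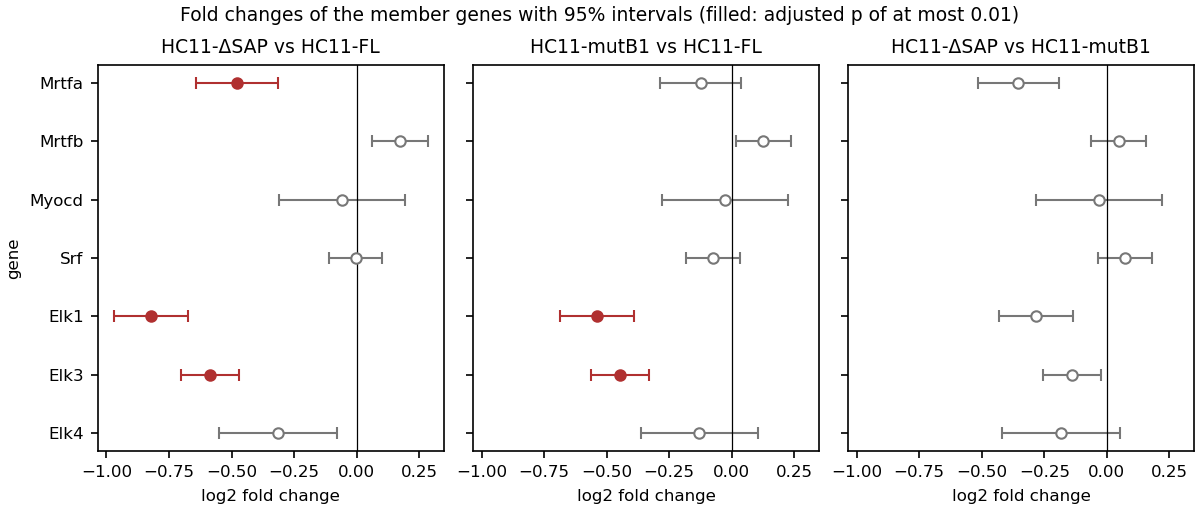
Log2 fold changes (x axis) of the 7 genes (rows) for HC11-ΔSAP against HC11-FL, HC11-mutB1 against HC11-FL and HC11-ΔSAP against HC11-mutB1. Whiskers are 95% intervals from limma and filled points have an adjusted p of at most 0.01: Mrtfa, Elk1 and Elk3 in the left panel, Elk1 and Elk3 in the middle and no gene in the right.

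Genes whose profile over the 9 arrays was most like that of a changed member were found by the root mean square difference between profiles, each centred on its own mean. For Mrtfa they were Psmc1, a proteasome ATPase (difference 0.0458), Dcaf4 (0.0557) and Ccne1, encoding cyclin E1 (0.0564), among 92 of 13156 genes within 0.1. For Elk1 they were Pgam1, a glycolytic enzyme (0.0651), Ctnna1, encoding alpha-catenin (0.0683), and Cks1b, a partner of cyclin-dependent kinases (0.0705), among 21 within 0.1. For Elk3 they were Tagln2, an actin-binding protein (0.0422), Csrp1, a LIM protein of the actin cytoskeleton (0.0439), and Hmgcs1, an enzyme of cholesterol synthesis (0.0467), among 130 within 0.1. The measure follows the differences between strains and adds no test.

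Of 24 genes of the Ras and ERK route, a list of cascade members and feedback inhibitors, 18 had a probeset and all of those were expressed. In HC11-ΔSAP against HC11-FL cells 6 rose and 2 fell, and in HC11-mutB1 against HC11-FL cells 4 rose and 1 fell. These are 44.4% and 27.8% of the expressed genes, with median changes of 0.04 and 0.13. Of all expressed genes 28.0% and 26.3% passed, and the HC11-mutB1 share is near that background. The genes that fell were Map2k1 in both strains and Nras in HC11-ΔSAP cells. Map2k1 was at -0.28 in HC11-ΔSAP (limma adjusted p = 0.00221) and at -0.31 in HC11-mutB1 cells (limma adjusted p = 0.00145). Nras was at -0.54 in HC11-ΔSAP (limma adjusted p = 0.000288) and at -0.08 in HC11-mutB1 cells (limma adjusted p = 0.407). Those that rose include some of the feedback inhibitors of ERK signalling in the list. Dusp6, a phosphatase of ERK, averaged 8.73 ± 0.04 in HC11-ΔSAP, 8.80 ± 0.07 in HC11-mutB1 and 7.45 ± 0.07 in HC11-FL cells (SD, n = 3 each), 2.43-fold higher in HC11-ΔSAP (limma adjusted p = 2.66e-06) and in HC11-mutB1 2.56-fold higher (limma adjusted p = 1.82e-06). Dusp4, a nuclear phosphatase of the same family, was 1.34-fold higher in HC11-ΔSAP (limma adjusted p = 0.00152) and in HC11-mutB1 cells 2.47-fold higher (limma adjusted p = 3.52e-06). Of the Sprouty genes, Spry2 was 2.01-fold higher in HC11-ΔSAP (limma adjusted p = 0.000124) and at 0.41 in HC11-mutB1 cells (limma adjusted p = 0.0142). Spry1 was 1.93-fold higher in HC11-ΔSAP (limma adjusted p = 1.59e-05) and at 0.13 in HC11-mutB1 cells (limma adjusted p = 0.181). Spry4, another Sprouty gene, was at 0.03 in HC11-ΔSAP (limma adjusted p = 0.836) and at -0.01 in HC11-mutB1 cells (limma adjusted p = 0.924). Dusp5, a further ERK phosphatase, was at -0.08 in HC11-ΔSAP (limma adjusted p = 0.433) and at 0.09 in HC11-mutB1 cells (limma adjusted p = 0.368).

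Of 21 known targets of MRTF and SRF, 20 were expressed. In HC11-ΔSAP against HC11-FL cells 5 rose and 7 fell, which is 60.0% of the expressed targets, and in HC11-mutB1 against HC11-FL cells 4 rose and 3 fell, which is 35.0%. These shares stand beside 28.0% and 26.3% of all expressed genes, and the median change was -0.19 in HC11-ΔSAP and 0.05 in HC11-mutB1 cells. With 1 array left out, 8 to 10 targets passed in HC11-ΔSAP, against 12 with all arrays, and 5 to 7 in HC11-mutB1, against 7. Over all probesets 3321 to 4089 and 2991 to 3869 passed in these fits, against 4562 and 4219 with all arrays. Acta2, smooth muscle actin, averaged 6.79 ± 0.02 in HC11-ΔSAP, 6.47 ± 0.04 in HC11-mutB1 and 7.54 ± 0.09 in HC11-FL cells (SD, n = 3 each), 1.69-fold lower in HC11-ΔSAP (limma adjusted p = 3.84e-05) and 2.1-fold lower in HC11-mutB1 (limma adjusted p = 5.68e-06). Tpm2, a tropomyosin, went the other way, 1.42-fold higher in HC11-ΔSAP (limma adjusted p = 0.000668) and in HC11-mutB1 cells 1.87-fold higher (limma adjusted p = 3.15e-05). The matricellular genes Ccn2 and Ccn1 moved apart in HC11-ΔSAP cells, with Ccn2 1.85-fold higher (limma adjusted p = 5.37e-05) and Ccn1 1.77-fold lower (limma adjusted p = 0.000147) than in HC11-FL. In HC11-mutB1 cells Ccn2 was 1.27-fold lower (limma adjusted p = 0.00806) and Ccn1 lay at -0.10 (limma adjusted p = 0.474). Basal epithelial markers also moved. Of Krt5, Krt14, Krt17 and Trp63, 2 rose and 2 fell in HC11-ΔSAP and 4 rose in HC11-mutB1 cells. Their means ran from 7.59 (Krt5) to 10.6 (Krt14) in HC11-ΔSAP and from 7.54 (Trp63) to 11.5 (Krt14) in HC11-mutB1 cells. In HC11-FL cells they ran from 7.12 (Trp63) to 10.9 (Krt14). Krt5 averaged 9.49 in HC11-FL, 7.59 in HC11-ΔSAP and 10.6 in HC11-mutB1 cells. It lay at -1.90 in HC11-ΔSAP (limma adjusted p = 5.23e-07) and at 1.15 in HC11-mutB1 cells (limma adjusted p = 5.1e-06). The part of these basal markers in the target counts was not tested.

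The 12 immediate early and related targets of ternary complex factors and SRF were all expressed, and 4 passed in HC11-ΔSAP and 2 in HC11-mutB1 cells against HC11-FL. These are 33.3% and 16.7% of the list, with median changes of -0.01 and 0.15. Both are near or under the 28.0% and 26.3% of all expressed genes, so the counts do not set this list apart. Dusp1, a phosphatase of MAP kinases, averaged 9.68 ± 0.03 in HC11-ΔSAP, 8.54 ± 0.05 in HC11-mutB1 and 8.12 ± 0.18 in HC11-FL cells (SD, n = 3 each), 2.95-fold higher in HC11-ΔSAP (limma adjusted p = 9.32e-06) and in HC11-mutB1 1.34-fold higher (limma adjusted p = 0.00972). Ier2, an immediate early gene, was 1.41-fold higher in HC11-ΔSAP (limma adjusted p = 0.00243) and in HC11-mutB1 cells 1.60-fold higher (limma adjusted p = 0.00052). In HC11-ΔSAP cells Mcl1, a survival factor, rose by 0.33 on the log2 scale (limma adjusted p = 0.00122) and Btg2, an antiproliferative gene, fell by 0.48 (limma adjusted p = 0.00739). In HC11-mutB1 cells they lay at 0.15 (limma adjusted p = 0.055) and 0.31 (limma adjusted p = 0.0514). The remaining genes of the list, Egr1, Egr2, Egr3, Egr4, Fos, Fosb, Junb and Nr4a1, passed in no comparison, in cells kept at 0.03% FCS. Fosb averaged 4.46, under every array median. The HC11-ΔSAP count was 2 without its second array, and that of HC11-mutB1 was 1 without any single array of HC11-ΔSAP or HC11-mutB1. Over all probesets, 3321 passed in HC11-ΔSAP without its second array, against 4562 with all arrays. In HC11-mutB1 against HC11-FL 2991 to 3869 passed with 1 array left out, against 4219 with all.

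**Figure D4:**
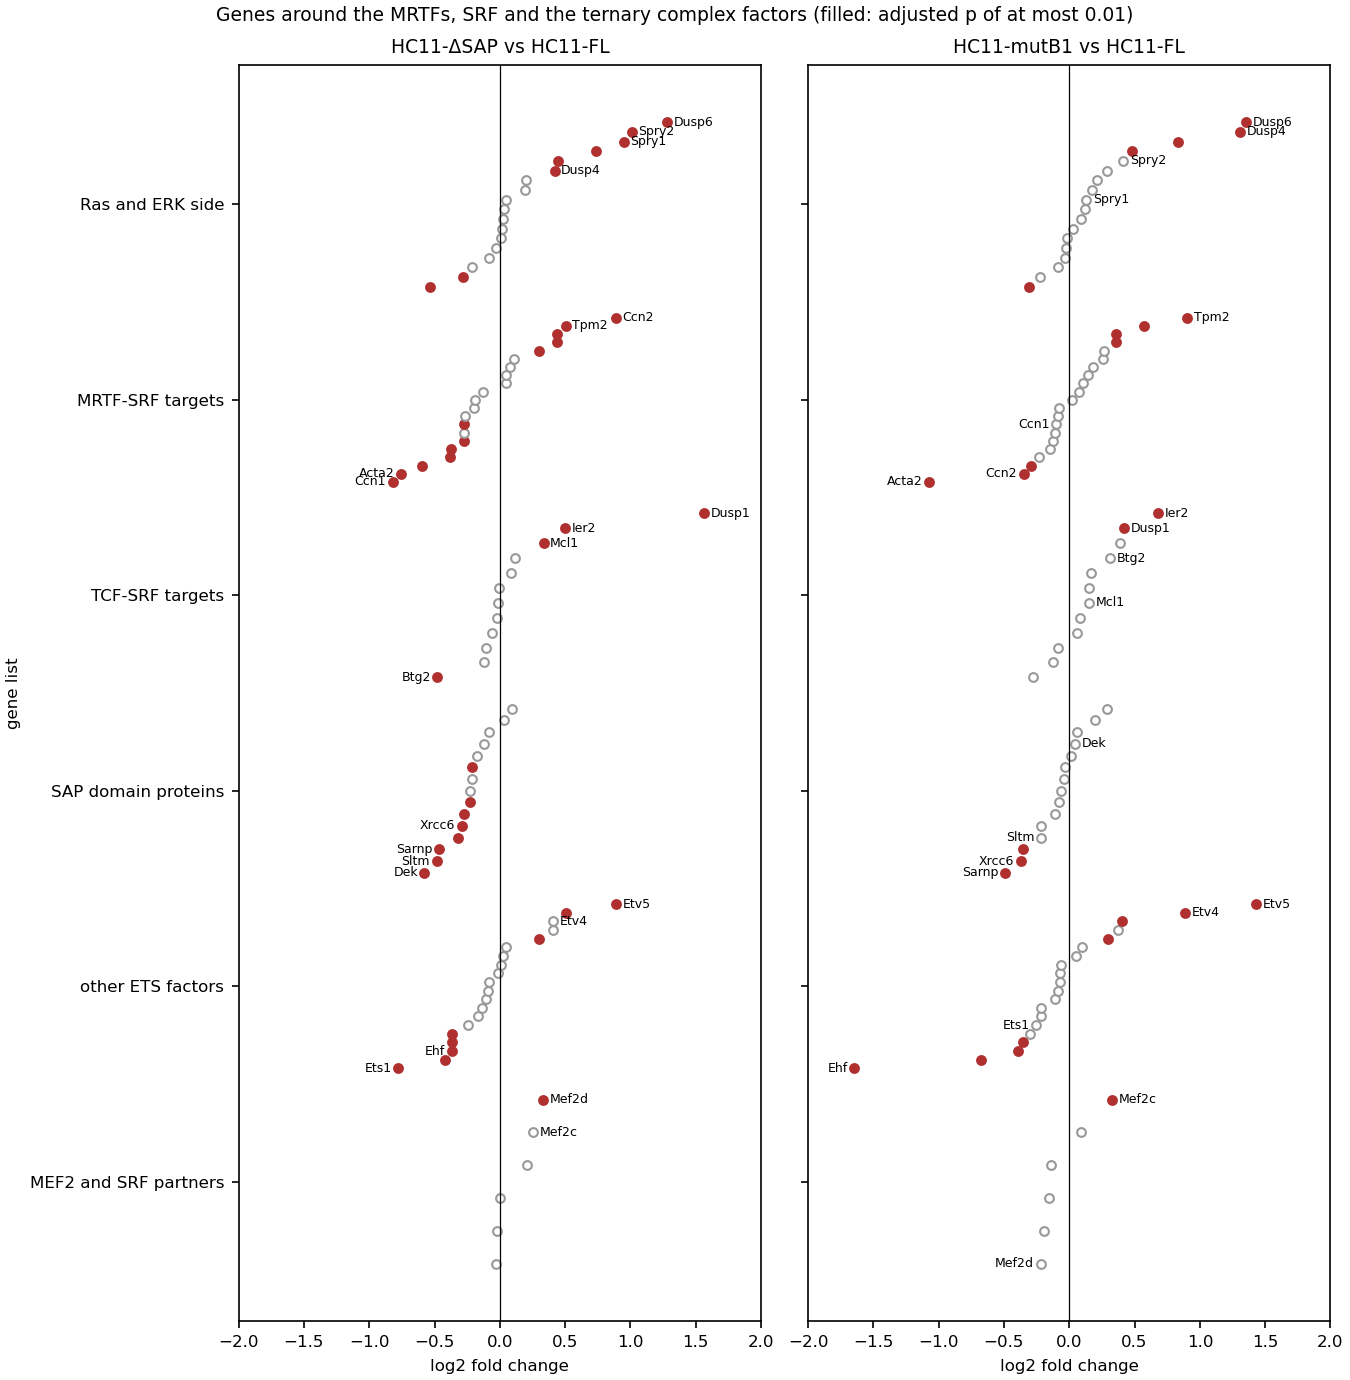
Log2 fold changes (x axis) of single genes (points) in 6 gene lists (rows), for HC11-ΔSAP against HC11-FL (left) and HC11-mutB1 against HC11-FL (right). Filled points have a limma adjusted p of at most 0.01 and labels mark up to 4 genes per list. In the left panel all filled SAP domain proteins lie below 0 and Dusp1 is farthest to the right, and in the right panel Ehf is farthest to the left.

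SAP domains are found in a set of nuclear DNA- and RNA-binding proteins apart from the MRTFs, and 15 genes of such proteins were all expressed. Of these 0 rose and 8 fell in HC11-ΔSAP, and 0 rose and 3 fell in HC11-mutB1 against HC11-FL cells, with median changes of -0.23 and -0.06. The shares that passed were 53.3% in HC11-ΔSAP and 20.0% in HC11-mutB1 cells, where 28.0% and 26.3% of all expressed genes passed and 12.0% and 10.6% were lower, so the HC11-mutB1 share is under that for either direction and above that for lower genes. Dek, a chromatin protein, was 1.49-fold lower in HC11-ΔSAP (limma adjusted p = 0.00375) and lay at 0.05 in HC11-mutB1 cells (limma adjusted p = 0.825). Sarnp, an mRNA export factor, was lower in HC11-ΔSAP (log2 fold change -0.46, limma adjusted p = 0.00326) and in HC11-mutB1 cells (-0.49, limma adjusted p = 0.00263). Xrcc6, the DNA repair protein Ku70, was likewise lower in HC11-ΔSAP (-0.29, limma adjusted p = 0.0069) and in HC11-mutB1 cells (-0.37, limma adjusted p = 0.00201). Sltm, a relative of the SAFB proteins, was at -0.49 in HC11-ΔSAP (limma adjusted p = 0.00153) and at -0.22 in HC11-mutB1 cells (limma adjusted p = 0.0686). With any 1 array left out, of whichever strain, between 2 and 5 genes passed in HC11-ΔSAP cells. Over all probesets 3321 to 4089 passed in those fits, against 4562 with all arrays.

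Outside the ternary complex factors, 15 of 21 other ETS genes were expressed, and 8 passed in each comparison with HC11-FL, 3 higher and 5 lower in HC11-ΔSAP and 4 higher and 4 lower in HC11-mutB1 cells. The share was 53.3% in each, where 28.0% of all expressed genes passed for HC11-ΔSAP and 26.3% for HC11-mutB1, and the median change -0.10 in HC11-ΔSAP and -0.21 in HC11-mutB1 cells. Ehf, an epithelial ETS factor, was 1.29-fold lower in HC11-ΔSAP (limma adjusted p = 0.0019) and in HC11-mutB1 cells 3.13-fold lower (limma adjusted p = 7.15e-07). Etv5, a gene known to respond to ERK signalling, was 1.86-fold higher in HC11-ΔSAP (limma adjusted p = 0.000327) and in HC11-mutB1 cells 2.70-fold higher (limma adjusted p = 2.78e-05). Its relative Etv4 lay at 0.41 in HC11-ΔSAP (limma adjusted p = 0.0188) and was 1.85-fold higher in HC11-mutB1 cells (limma adjusted p = 0.000364). Ets1 was 1.71-fold lower in HC11-ΔSAP (limma adjusted p = 2.79e-05) and lay at -0.25 in HC11-mutB1 cells (limma adjusted p = 0.0112). The HC11-ΔSAP count of 8 dropped to 4 without the third HC11-FL array and to 5 without its own first or second. Over all probesets 3436, 3621 and 3321 passed in these fits, in the same order, against 4562 with all arrays.

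Of the MADS-box relatives and cardiac partners of SRF, 5 of 8 genes reached the expression minimum and 1 passed in each comparison with HC11-FL. This share of 20.0% is under the 28.0% of all expressed genes for HC11-ΔSAP and the 26.3% for HC11-mutB1. The 5 genes include the cardiac partners Gata4 (mean 5.01) and Nkx2-5 (mean 6.10), which did not pass. Whether they are transcribed in these cells was not tested. Mef2d was higher in HC11-ΔSAP cells (log2 fold change 0.33, limma adjusted p = 0.00137) and at -0.22 in HC11-mutB1 cells (limma adjusted p = 0.0124). Mef2c was at 0.26 in HC11-ΔSAP (limma adjusted p = 0.0289) and higher in HC11-mutB1 cells (0.33, limma adjusted p = 0.00994), a call that was lost without any 1 array other than the second of HC11-FL. Without the second HC11-FL array 2 genes of the list passed in HC11-ΔSAP cells.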

How the data were processed

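RNA of 9 HC11 samples, 3 per strain, was hybridized to Affymetrix Mouse Gene arrays. The authors deposited log2 expression values of 34760 probesets, made by RMA (background correction, quantile normalization and median polish over all arrays), and the submitters' processing notes name affy and R 2.10.0. Quantile normalization brings all arrays to 1 distribution, so a shift shared by most transcripts would not be seen. Scans and scan dates were not used here. By the platform annotation 21640 probesets have 1 symbol, 1321 several and 11799 none listed.

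Here limma 3.58.1 in R 4.3.3 was fitted to all 9 arrays with 1 mean per strain (6 residual and 1.93 prior degrees of freedom) and tested on simulated data. A mean of at least 4 counted as expressed. A gene was represented by its probeset with the highest mean. Promoter windows came from RefSeq (GRCm38.p6), which had windows for 6 of the 7 genes. The 7 genes and 6 gene lists were chosen with earlier results of these data known, and 1 further list is not reported here. From each list, up to 4 genes were named that passed against HC11-FL with the largest change, and for each changed member the 3 genes with the nearest profile. The serum-induced genes that passed in no comparison, Spry4, Dusp5, Flna and Elf4 were named after their values were seen. Symbols are those of the annotation. Alternatives were other thresholds, filters, moderation, weights, scaling, a replicate block, and fits without each array.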

Additional observations from a re-analysis of the deposited data

Results flagged for a closer look

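No member gene passed between the mutant strains. Of the 22 genes named from the lists by the size of their change, 14 did. The change of those 14 against HC11-FL therefore differed between HC11-ΔSAP and HC11-mutB1 cells in limma (adjusted p of at most 0.01). Over all expressed genes 20.5% passed between these strains, but the named genes were picked for large changes against HC11-FL, which raises their share. As HC11-FL enters both changes, the difference between them is HC11-ΔSAP minus HC11-mutB1 on the log2 scale, and all values below are of that kind. It was positive for Ehf (1.28), Ccn2 (1.23), Dusp1 (1.14), Spry1 (0.82), Spry2 (0.60), Mef2d (0.55) and Acta2 (0.32). It was negative for Dusp4 (-0.89), Btg2 (-0.79), Ccn1 (-0.72), Dek (-0.62), Etv5 (-0.54), Ets1 (-0.52) and Tpm2 (-0.40). Of these 22 genes, Ccn2 alone passed against HC11-FL in both strains with opposite signs. Outside the 22, the markers Krt5, Krt14, Pdgfra and Cd68 did so as well. So did Flna of the MRTF and SRF targets and Elf4 of the other ETS genes.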

How the results depend on the processing

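Mrtfa, Elk1 and Elk3 in HC11-ΔSAP and Elk1 and Elk3 in HC11-mutB1 cells kept their direction and stayed past an adjusted p of 0.01 against HC11-FL in all alternatives without a fold minimum, including each array left out. With the fold and expression minimums of the methods, 0 members passed against HC11-FL in HC11-ΔSAP and 0 in HC11-mutB1 cells, and 610, 580 and 580 probesets passed in HC11-ΔSAP against HC11-FL, HC11-mutB1 against HC11-FL and HC11-ΔSAP against HC11-mutB1. At an adjusted p of at most 0.05, 6480 probesets passed in HC11-mutB1 against HC11-FL and 5247 in HC11-ΔSAP against HC11-mutB1. There Mrtfb passed in HC11-ΔSAP against HC11-FL (0.17), and 2 members passed between the mutant strains, Mrtfa (-0.35) and Elk1 (-0.28). Between the mutant strains 1 member, Mrtfa, also passed with expressed probesets only, with a trended robust prior and with the replicate block (-0.35 in each), with array weights (-0.37) and after recentring (-0.36). With 1 array left out its value ran from -0.39 to -0.32, with 0 to 1 members past the threshold. At 0.05 the lists held 8 Ras and ERK, 5 SAP domain and 2 MEF2 genes in HC11-mutB1 against HC11-FL, 2 MEF2 genes in HC11-ΔSAP against HC11-FL and 5 SAP domain genes between the mutant strains.

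Replicate numbers were not taken as pairs. Deviations of arrays numbered 1 correlated at 0.108 to 0.257, but those of the other same-numbered arrays at -0.107 to 0.0816 and those of differently numbered arrays at -0.261 to 0.23. With the replicate block, 5 SAP domain, 5 other ETS and 2 ternary complex target genes passed in HC11-ΔSAP against HC11-FL, 1 ternary complex target and 0 MEF2 genes in HC11-mutB1 against HC11-FL, and 1 SAP domain and 4 other ETS genes between the mutant strains. With 1 array left out, counts ran in HC11-ΔSAP against HC11-FL from 2 to 5 for SAP domain, 4 to 7 for other ETS, 2 to 3 for ternary complex target and 1 to 2 for MEF2 genes. They ran in HC11-mutB1 against HC11-FL from 1 to 2 for ternary complex target and 0 to 1 for MEF2 genes, and between the mutant strains from 0 to 1 for SAP domain and 4 to 7 for other ETS genes. Over all probesets and with the replicate block, 3795 passed in HC11-ΔSAP and 3463 in HC11-mutB1 against HC11-FL, where 4562 and 4219 passed without it. With 1 array left out, 3321 to 4089 probesets passed in HC11-ΔSAP and 2991 to 3869 in HC11-mutB1 against HC11-FL. Between the mutant strains 2191 to 3009 passed, against 3259 with all arrays. The cause of these shifts was not tested. No value that passed changed sign. Of those that did not pass, Srf in HC11-ΔSAP against HC11-FL was 0.0091 after recentring and -0.025 to 0.0089 with 1 array left out. Mrtfb between the mutant strains was -0.0022 as a mean over its probesets. With array weights Myocd was 0.00013 in HC11-ΔSAP and 0.053 in HC11-mutB1 cells against HC11-FL. With 1 array left out Myocd ran from -0.15 to 0.058 in HC11-ΔSAP and from -0.12 to 0.089 in HC11-mutB1 cells against HC11-FL, and from -0.083 to 0.046 between the mutant strains. Myocd is under the expression minimum.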
